A study of Homo sapiens with 18 samples.

Results

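The NRF2 antioxidant programme was followed through 9 protein-coding genes in 18 poly(A)-selected RNA-seq libraries. They were NFE2L2, which encodes NRF2 itself, the NRF2 target genes NQO1, GCLM, GCLC, TXNRD1 and SRXN1, and the aldo-keto reductase genes AKR1C1, AKR1C2 and AKR1B10. They were taken by symbol from a list fixed by name, and all 9 were among the 23106 genes of the count files. The libraries came from 3 established human cell lines with 3 replicates in normoxia and 3 in hypoxia each. HKC-8 are renal tubule cells, and their hypoxic samples are labelled 0.5% oxygen for 16 h although their titles give 0.1. RCC4 is a renal carcinoma line that lacks functional VHL, the protein that marks HIF-α for destruction, and the cells used here, labelled RCC4+VHL, had VHL put back by stable transfection. All 6 RCC4 libraries carry it. Hypoxic RCC4 cells are labelled 1% oxygen for 24 h. The study describes a single exposure for all lines elsewhere, so the oxygen level and time of RCC4 are uncertain. HepG2 is a hepatocellular carcinoma line, exposed to 0.5% oxygen for 16 h. The labels do not say whether replicates were separate cultures, so the p-values below measure the spread between these samples, which may be technical.

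NRF2 is a basic leucine zipper transcription factor that cells make and destroy continuously. KEAP1, an adaptor of the CUL3 ubiquitin ligase, holds NRF2 for degradation until oxidants or electrophiles modify KEAP1. NRF2 then accumulates, pairs with a small MAF protein (MAFF, MAFG or MAFK) and binds antioxidant response elements, where the repressor BACH1 competes for the same sites. Its targets detoxify quinones and carbonyls, make glutathione and keep the thioredoxin system reduced. Because NRF2 is governed mainly as a protein, the counts below describe messenger RNA only, and NRF2 protein was not measured in these files.

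HKC-8 libraries held 75441764 to 97984260 counted reads each, RCC4 libraries 42045335 to 51794355 and HepG2 libraries 40915980 to 48355303, so that 3 reads, taken here as the floor, equal 0.0306 to 0.0733 reads per 1e6 counted reads (CPM). All CPM below were scaled by TMM, a trimmed mean that sets libraries to a common level, over all 18 libraries. VEGFA and NDRG1, well-known hypoxia-induced genes, rose in each line, VEGFA by 1.72 (HKC-8), 0.87 (RCC4) and 1.38 (HepG2) on the log2 scale and NDRG1 by 4.72, 3.74 and 3.56. All 8 hepatocyte-like markers exceeded 1 CPM in every HepG2 library and none did in the renal lines. Of 8 renal tubule markers, 3 did so in HKC-8, where LRP2 had at most 3 reads in any library, 6 in RCC4 and 4 in HepG2. Of 6 fibroblast or mesenchymal markers 3 did so in each line, of 4 leukocyte markers 1 in both renal lines (CD68) and 2 in HepG2 (CD68 and the lysozyme gene LYZ), and of 3 endothelial markers 1 in HKC-8, none in RCC4 and 1 in HepG2. The labels name no library batch, and any difference in library preparation between the lines cannot be told apart from the line itself.

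On GRCh37, the build of the counts, NFE2L2 lies at chr2:178095036-178129455, NQO1 at chr16:69743304-69760463, GCLM at chr1:94350755-94374986, GCLC at chr6:53362139-53409899 and SRXN1 at chr20:627259-633844, all on the minus strand, and TXNRD1 at chr12:104609557-104744085 on the plus strand. AKR1C1 (chr10:5005607-5025475, plus strand) and AKR1C2 (chr10:5029967-5046049, minus strand) are neighbours, and AKR1B10 lies at chr7:134212319-134226164 on the plus strand. These intervals are those of the main transcripts. The exons of all annotated NFE2L2 transcripts together (14975 bases, against 2446 in the main one) share 3509 bases with those of HNRNPA3 and 11 with those of AGPS. The counts were made on UCSC genes, and whether those hold the shared stretches was not checked. No strand setting is stated for the counting, so reads in any such stretches cannot be assigned with certainty.

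AKR1C1 and AKR1C2 are near copies, which bears on every count given for them. Their coding sequences are 972 bases each and differ at 19 positions (98.0% identity), and the last 189 coding bases are identical. The 60 coding bases that hold the most differences (positions 103 to 162 from the A of the start codon, in the GENCODE transcripts on GRCh37) are shown with the 10 differing bases in capitals.
AKR1C1: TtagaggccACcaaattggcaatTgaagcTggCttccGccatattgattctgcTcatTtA
AKR1C2: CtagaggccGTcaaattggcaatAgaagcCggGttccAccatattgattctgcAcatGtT
Of all stretches of 50 coding bases, 45.5% in AKR1C1 and 42.8% in AKR1C2 occur in no annotated transcript of another gene, against 71.6% in AKR1B10, whose copies are AKR1B15 and the pseudogene AKR1B10P1. Over the whole main transcript, from which reads also come, the shares are higher, 77.3%, 52.7% and 82.0%. With stretches of 100 coding bases the shares are 79.0%, 73.3% and 96.5%. Fragments that did not map uniquely had been removed before counting, so the counts of AKR1C1 and AKR1C2 are lower than the reads these genes gave, and their levels are not comparable with those of other genes.

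The letters of an antioxidant response element core, TGACNNNGC on either strand, were searched in RefSeq promoter windows (GRCh38.p14, 250 bases before to 50 after each start site), in which 8 of the 9 genes were listed. Of all 35116 windows, 13.3% held them. They were found in GCLM and in both windows of TXNRD1, and not in these windows of NFE2L2, NQO1, GCLC, SRXN1, AKR1C1 or AKR1C2, which says nothing of sites elsewhere. The matches are shown on the strand of the gene, with the core in capitals.
GCLM, chr1:93909446-93909474, minus strand: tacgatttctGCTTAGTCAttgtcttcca
TXNRD1, chr12:104215670-104215698, plus strand: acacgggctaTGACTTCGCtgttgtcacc
TXNRD1, chr12:104215761-104215789, plus strand: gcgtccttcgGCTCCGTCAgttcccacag
TXNRD1, chr12:104286920-104286948, plus strand: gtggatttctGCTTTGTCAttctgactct
The core in GCLM, which lies 34 to 26 bases before the start site, reads TGACTAAGC on the opposite strand. The hypoxia response element core GCGTG, held by 36.5% of all windows, was found in the windows of NFE2L2, NQO1, GCLM, GCLC and SRXN1. In TXNRD1 it was found only in the downstream window. ACGTG, held by 21.4%, was found in none of the 8 genes. NFE2L2 and TXNRD1 were searched in more than 1 window each, so a tally by gene is not comparable with these shares of windows. The windows of AKR1C1 and AKR1C2 are themselves near copies, with 288 of 292 aligned bases identical (98.6%).

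Hypoxia lowered NQO1 and GCLM in all 3 cell lines, and no gene of the 9 rose in any of them. In HKC-8 cells 2 of the 6 genes that had enough reads to be tested fell and none rose, where 9.12% of all 13536 genes tested fell and 11.2% rose at an adjusted p under 0.05. In RCC4 cells all 7 tested genes fell, where 24.2% of 12811 genes fell and 25.9% rose. In a single fit of all 18 libraries 3 of the 7 kept their call, and NFE2L2 (adjusted p = 0.144), NQO1 (0.138), GCLC (0.0527) and TXNRD1 (0.281) lost it. In HepG2 cells 8 of 9 fell, where 19.2% of 13623 genes fell and 19.9% rose. HKC-8 cells gave a median log2 fold change of −0.13 over the tested genes (0.0036 over all genes), RCC4 cells −0.25 (−0.0018) and HepG2 cells −0.59 (−0.0044). Of the 6 genes tested in all lines 2 fell in each, and 392 of the 11418 genes so tested (3.43%) did. Scaling by library totals alone made rises 33.0% instead of 51.7% of all RCC4 calls and 32.6% instead of 50.8% of all HepG2 calls, and under it the 9th gene, NFE2L2, also passed in HepG2 cells.

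**Figure D1:**
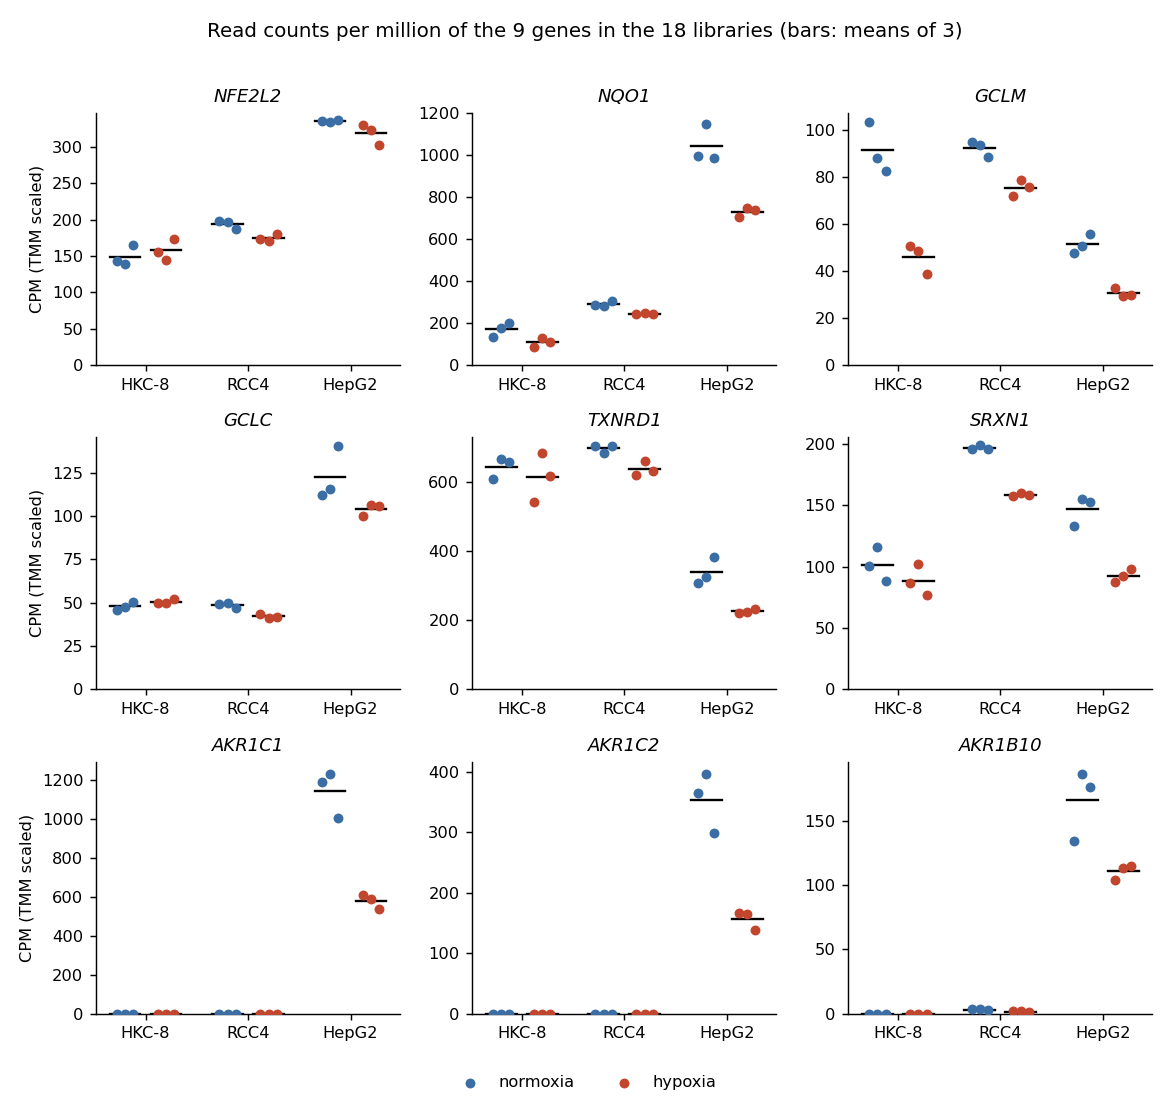
TMM-scaled CPM of each gene (y axis, linear, from 0) in the 3 normoxic (blue) and 3 hypoxic (red) libraries of each cell line, with the mean of 3 as a bar. NQO1 and GCLM were lower in every hypoxic library than in every normoxic one of the same line, and AKR1C1 and AKR1C2 were near 0 outside HepG2 cells.

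**Figure D2:**
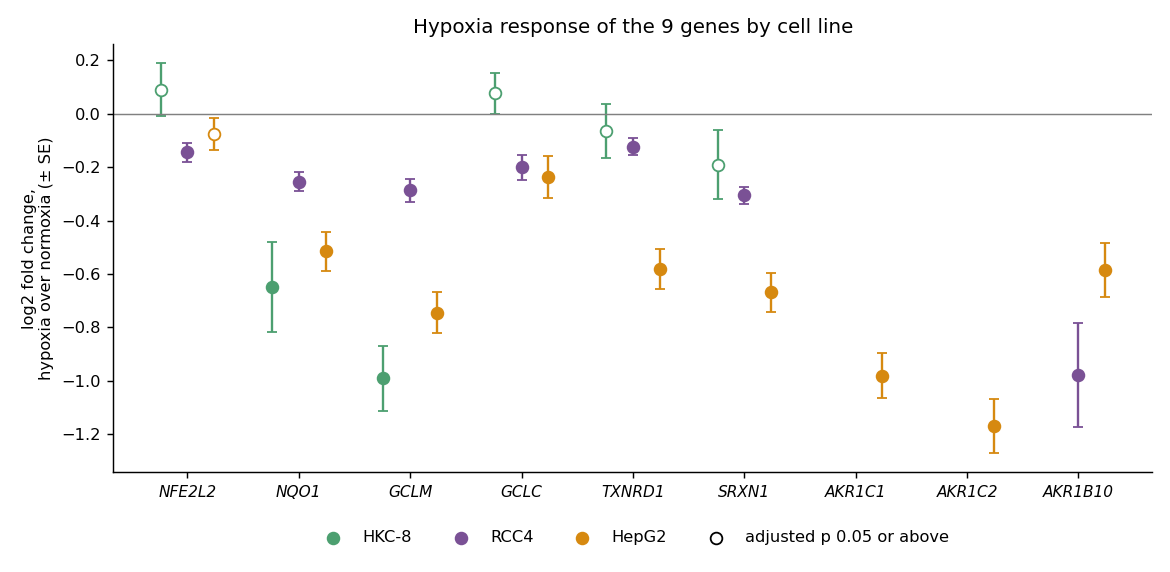
Log2 fold change of each gene, hypoxia over normoxia, with its standard error (SE), for the 3 cell lines. Filled points passed an adjusted p under 0.05, and untested genes (AKR1C1, AKR1C2 and AKR1B10 in HKC-8, AKR1C1 and AKR1C2 in RCC4) have no point. All filled points lie below 0, from −0.12 for TXNRD1 in RCC4 to −1.17 for AKR1C2 in HepG2.

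NFE2L2 encodes the factor itself, and its transcript changed little. In HKC-8 cells its CPM was 143, 139 and 165 in normoxia and 156, 144 and 174 in hypoxia, and the groups overlapped (log2 fold change 0.09 ± 0.10 SE, adjusted p = 0.553). In RCC4 cells it was 199, 196 and 187 in normoxia and 173, 171 and 179.7 in hypoxia. All hypoxic RCC4 libraries were lower, by a small margin (−0.14 ± 0.04, adjusted p = 0.00182). In HepG2 cells it was 335, 335 and 337 in normoxia and 330.1, 323 and 302 in hypoxia. All hypoxic HepG2 libraries were lower, but the difference did not pass the test (−0.08 ± 0.06, adjusted p = 0.330). Scaling by library totals gave −0.17 in HepG2 cells, with an adjusted p of 0.0311.

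NQO1 encodes a reductase that takes quinones to hydroquinones by transfer of an electron pair and is the customary readout of NRF2 activity. In HKC-8 cells its CPM was 135, 177 and 202 in normoxia and 87.9, 129 and 109.7 in hypoxia. Every hypoxic library was below every normoxic one, and the level fell by 36.3% (log2 −0.65 ± 0.17 SE, adjusted p = 0.0275). The call was lost on leaving out hypoxic replicate 1 (adjusted p = 0.101), hypoxic replicate 3 (0.0704) or normoxic replicate 2 (0.0614). These fits left out the replicate number, and with it as a block NQO1 passed more clearly in HKC-8 cells (−0.65 ± 0.08, adjusted p = 0.00012). In RCC4 cells the CPM was 288, 283 and 306 in normoxia and 242, 248 and 242 in hypoxia (−0.25 ± 0.04, adjusted p = 2.86e-06). In HepG2 cells it was 997, 1149 and 986 in normoxia and 706, 749 and 739 in hypoxia (−0.52 ± 0.07, adjusted p = 0.000107). The fall in HepG2 cells was 30.0%, again with every hypoxic library below every normoxic one. In bulk RNA, fewer cells that hold a transcript and less of it per cell cannot be told apart.

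GCLM and GCLC encode the modifier and the catalytic subunit of glutamate-cysteine ligase, the rate-limiting enzyme of glutathione synthesis. GCLM showed the largest fall of the 6 genes tested in HKC-8. Its CPM there was 104, 88.3 and 82.6 in normoxia and 50.8, 48.4 and 38.6 in hypoxia, and it fell by 49.7% (−0.99 ± 0.12, adjusted p = 0.00112). In RCC4 cells GCLM was at 95.2, 93.5 and 88.5 CPM in normoxia and 72.0, 78.6 and 75.6 CPM in hypoxia (−0.29 ± 0.04, adjusted p = 7.54e-06). In HepG2 cells it was at 47.8, 50.8 and 55.7 CPM in normoxia and 32.9, 29.2 and 30.0 CPM in hypoxia (−0.75 ± 0.08, adjusted p = 6.83e-06). The hypoxic and normoxic libraries did not overlap in any line.

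GCLC moved less. In HKC-8 cells its CPM was 45.7, 47.6 and 50.3 in normoxia and 49.6, 49.6 and 52.0 in hypoxia, with overlapping groups (0.08 ± 0.08, adjusted p = 0.511). In RCC4 cells it was 49.1, 49.9 and 47.0 in normoxia and 43.7, 41.0 and 41.9 in hypoxia (−0.20 ± 0.05, adjusted p = 0.00125). In HepG2 cells it was 112, 116 and 140.5 in normoxia and 99.9, 106 and 106 in hypoxia (−0.24 ± 0.08, adjusted p = 0.0284). The hypoxic libraries lay below the normoxic ones in RCC4 and HepG2 cells, but the HepG2 call was lost on leaving out hypoxic replicate 1 (adjusted p = 0.111), 2 (0.0642) or 3 (0.0682) or normoxic replicate 3 (0.0733).

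The number of GCLM reads per GCLC read compares the 2 subunits within a library and does not depend on scaling. It was examined after the values of both genes had been seen. In HKC-8 cells the ratio was 1.92 ± 0.32 (SD, n = 3) in normoxia and 0.914 ± 0.151 in hypoxia, and in HepG2 cells 0.421 ± 0.022 and 0.296 ± 0.030. In both lines every hypoxic library was below every normoxic one, at an exact two-sided permutation p of 0.1, the smallest that 3 against 3 libraries allow. In RCC4 cells it was 1.90 ± 0.035 and 1.79 ± 0.13 (exact permutation p = 0.3), and the groups overlapped.

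**Figure D3:**
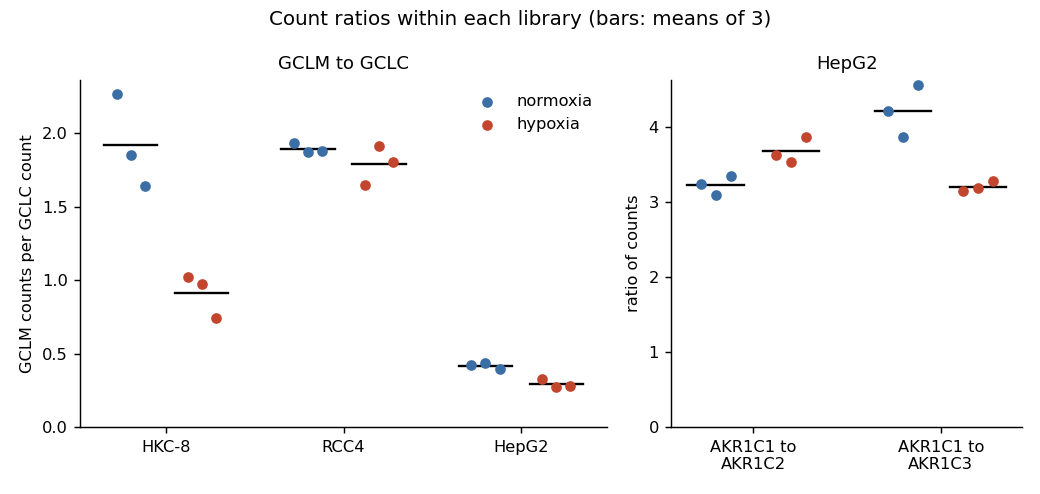
Ratios of read counts within each library (y axes, linear, from 0) in normoxia (blue) and hypoxia (red), with means of 3 as bars. Left, GCLM per GCLC by cell line, with means of 1.92 and 0.914 in HKC-8, 1.90 and 1.79 in RCC4 and 0.421 and 0.296 in HepG2. Right, AKR1C1 per AKR1C2 and per AKR1C3 in HepG2 cells, where the first rose from 3.23 to 3.68 and the second dropped from 4.21 to 3.21.

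TXNRD1 and SRXN1 serve thiol redox control. TXNRD1 is the cytosolic thioredoxin reductase, which returns thioredoxin to its reduced form with NADPH, and SRXN1 is sulfiredoxin, which restores overoxidized peroxiredoxins. In HKC-8 cells TXNRD1 was at 609, 668 and 659 CPM in normoxia and 542, 686 and 619 CPM in hypoxia, and the groups overlapped (−0.06 ± 0.10, adjusted p = 0.688). In RCC4 cells it was at 706, 685 and 705 CPM in normoxia and 621, 662 and 633 CPM in hypoxia (−0.12 ± 0.03, adjusted p = 0.00292). In HepG2 cells it was at 309, 325 and 382 CPM in normoxia and 221, 225 and 232 CPM in hypoxia (−0.58 ± 0.07, adjusted p = 4.71e-05). The fall was 33.2% in HepG2 and 8.20% in RCC4 cells.

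SRXN1 had a CPM of 101, 116 and 87.9 in normoxic and 86.9, 102 and 76.5 in hypoxic HKC-8 cells, and the groups overlapped (−0.19 ± 0.13, adjusted p = 0.323). In HKC-8 cells the replicate numbers paired the samples, and with the replicate number as a block SRXN1 passed the test there (−0.19 ± 0.05, adjusted p = 0.0151). No other of the 6 genes changed its call under the block. In RCC4 cells SRXN1 was at 196, 199 and 195 CPM in normoxia and 157, 159.7 and 159 CPM in hypoxia (−0.31 ± 0.03, adjusted p = 7.55e-08). In HepG2 cells it was at 133, 155 and 152 CPM in normoxia and 87.1, 92.0 and 98.2 CPM in hypoxia (−0.67 ± 0.07, adjusted p = 1.08e-05). Both of these lines showed no overlap between hypoxic and normoxic libraries.

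The aldo-keto reductases reduce aldehydes and ketones. AKR1C1 and AKR1C2 act on steroids, prostaglandins and products of lipid peroxidation, and AKR1B10 on retinal and aliphatic aldehydes. AKR1C1 was at 1185, 1231 and 1002 CPM in normoxic and 608, 586 and 538 CPM in hypoxic HepG2 cells, and fell by 49.3% (−0.98 ± 0.08, adjusted p = 9.44e-07). AKR1C2 was at 365, 397 and 299 CPM in normoxic and 167, 166 and 139 CPM in hypoxic HepG2 cells (−1.17 ± 0.10, adjusted p = 1.16e-06). These were the largest falls of the 9 genes in HepG2 cells, and with the reads of both summed to 1 feature the fall was −1.02 ± 0.09 (adjusted p = 1.01e-06). Neither gene could be tested in the renal lines. In HKC-8 cells AKR1C1 had 0 reads in each normoxic library and 4, 1 and 0 in hypoxia, and in RCC4 cells 4, 1 and 1 in normoxia and 0, 1 and 2 in hypoxia. AKR1C2 had at most 6 reads in any library of these lines.

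AKR1B10 was at 134, 187 and 177 CPM in normoxic and 104, 113 and 115 CPM in hypoxic HepG2 cells (−0.59 ± 0.10, adjusted p = 0.000557). In RCC4 cells it had only 180, 178 and 114 reads in normoxia and 95, 90 and 57 in hypoxia, which is 3.56, 3.54 and 2.67 against 1.96, 1.80 and 1.18 CPM (−0.98 ± 0.20, adjusted p = 0.000225). The hypoxic libraries were lower in both lines. In HKC-8 cells it had between 1 and 12 reads in a library and was not tested.

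Within HepG2 cells the ratio of AKR1C1 to AKR1C2 reads was 3.23 ± 0.12 (SD, n = 3) in normoxia and 3.68 ± 0.17 in hypoxia. Every hypoxic library was above every normoxic one. The ratio of AKR1C1 to AKR1C3, a further and less similar gene of the cluster (91.5% coding identity with AKR1C1), was 4.21 ± 0.35 and 3.21 ± 0.07, with every hypoxic library below every normoxic one. Both comparisons gave an exact two-sided permutation p of 0.1, the smallest possible with 3 against 3.

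In normoxia NQO1, NFE2L2 and the aldo-keto reductase genes were highest in HepG2 cells, and TXNRD1 and GCLM were lowest there. Compared with HKC-8, HepG2 cells had higher levels of 7 genes and lower levels of 2, where 42.6% of 14806 genes were higher and 40.5% lower. Compared with RCC4, HepG2 cells had higher levels of 6 and lower levels of 3, where 45.3% of genes were higher and 38.1% lower. RCC4 cells had higher levels of 6 than HKC-8 and lower levels of none, where 39.4% were higher and 41.4% lower. AKR1C1 and AKR1C2 entered these fits only through HepG2 cells and AKR1B10 only through HepG2 and RCC4 cells, so their calls against the other lines were fixed by the filter, and in the comparison of the renal lines they rest on 6 and 8 reads against 0.

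NFE2L2 stood at 149 ± 14 CPM (SD, n = 3) in normoxic HKC-8, at 194 ± 6.2 CPM in normoxic RCC4 and at 336 ± 1.1 CPM in normoxic HepG2 cells, and each step passed the test (0.39 ± 0.07 SE for RCC4 over HKC-8, adjusted p = 0.000184, and 0.80 ± 0.07 for HepG2 over RCC4, adjusted p = 1.52e-07). NQO1 had the same order, with 171 ± 34, 292 ± 12 and 1044 ± 91 CPM. Its log2 difference was 0.78 ± 0.12 between RCC4 and HKC-8 (adjusted p = 3.43e-05) and 1.85 ± 0.12 between HepG2 and RCC4 (adjusted p = 5.15e-09). GCLC was at 47.9 ± 2.3 and 48.7 ± 1.5 CPM in HKC-8 and RCC4, which did not differ beyond their spread (adjusted p = 0.723), and at 123 ± 16 CPM in HepG2 cells.

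GCLM and TXNRD1 were instead lower in HepG2 cells. GCLM was at 91.5 ± 10.9 CPM in HKC-8 and 92.4 ± 3.5 in RCC4 (adjusted p = 0.805 for their difference) and at 51.4 ± 4.0 in HepG2 cells (−0.84 ± 0.09 against RCC4, adjusted p = 7.95e-07). TXNRD1 was at 645 ± 32 and 699 ± 12 CPM in the renal lines (adjusted p = 0.167) and at 339 ± 39 in HepG2 cells (−1.04 ± 0.08 against RCC4, adjusted p = 3.49e-08). HepG2 cells were thus highest in the catalytic and lowest in the modifier subunit of the same ligase. SRXN1 was lowest in HKC-8 (101 ± 14 CPM), higher in HepG2 (147 ± 12) and highest in RCC4 cells (197 ± 2.1), and each step passed the test (0.56 ± 0.09 for HepG2 over HKC-8, adjusted p = 7.15e-05, and −0.41 ± 0.09 for HepG2 against RCC4, adjusted p = 0.000886). The median of all genes was 0.11 higher in HepG2 than in RCC4 cells on the log2 scale, and relative to it the HepG2 to RCC4 differences were −0.95 for GCLM, −1.15 for TXNRD1, −0.52 for SRXN1, 1.74 for NQO1, 1.23 for GCLC and 0.69 for NFE2L2.

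AKR1C1 and AKR1C2 were at 1139 ± 121 and 354 ± 50 CPM in normoxic HepG2 cells. Against the 0 reads of normoxic HKC-8 cells, and a floor of 3 reads per library, AKR1C1 was at least 32259.5-fold and AKR1C2 at least 10025-fold higher in HepG2 cells. Against the 6 and 8 reads of the 3 normoxic RCC4 libraries the ratios were 27346 (95% counting interval 12563 to 74517) and 6378 (3237 to 14774). AKR1B10 fell between, with 166 ± 28 CPM in HepG2, 3.25 ± 0.51 in RCC4 and 0.0826 ± 0.0681 in HKC-8 cells, the last from 21 reads in 3 libraries. Its counting ratio was 50.5 (46.1 to 55.4) for HepG2 over RCC4 and 40.0 (25.8 to 65.2) for RCC4 over HKC-8 cells. Intervals and floors cover counting error only.

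Levels of different genes were compared per kilobase of the main transcript, leaving out AKR1C1 and AKR1C2. In normoxic HKC-8 cells TXNRD1 led with 167 ± 8.3 CPM per kb, followed by NQO1 with 67.9 ± 13.5 and NFE2L2 with 60.8 ± 5.7, which did not differ beyond their spread. In RCC4 cells the order was TXNRD1 (181 ± 3.1 CPM per kb), NQO1 (116 ± 4.7), NFE2L2 (79.2 ± 2.5) and SRXN1 (77.8 ± 0.8), the last pair again within the spread. In HepG2 cells NQO1 led with 414 ± 36 CPM per kb, followed by NFE2L2 (137 ± 0.47), AKR1B10 (102 ± 17) and TXNRD1 (87.7 ± 10.0), the last pair within the spread. GCLM stood at 10.5 ± 0.8 and GCLC at 32.4 ± 4.1 CPM per kb in HepG2 cells, against 18.7 ± 2.2 and 12.7 ± 0.6 in HKC-8 and 18.9 ± 0.7 and 12.9 ± 0.4 in RCC4 cells.

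Whether the hypoxia response differed between HepG2 and HKC-8 cells, which share the labelled exposure, was asked of their 12 libraries with an interaction term. The HKC-8 titles give 0.1 instead, and any difference in oxygen level between the lines cannot be told apart from the line itself. The response was lower in HepG2 cells for 1 of the 9 genes, TXNRD1 (−0.52 ± 0.13, adjusted p = 0.0238), and higher for none, where 4.28% of 15046 genes were lower and 5.02% higher. The TXNRD1 call was lost on leaving out HKC-8 normoxic replicate 1 (adjusted p = 0.0658) or HepG2 hypoxic replicate 1 (0.0624), hypoxic replicate 2 (0.0560) or normoxic replicate 3 (0.0517). SRXN1 (−0.48 ± 0.16, adjusted p = 0.0773) and GCLC (−0.31 ± 0.12, adjusted p = 0.113) did not pass, but both did with the replicate block (adjusted p = 0.000821 and 0.0286), and SRXN1 also when scaled by library totals (−0.58, adjusted p = 0.0150). GCLM (0.25 ± 0.15, adjusted p = 0.358), NQO1 (0.14 ± 0.20, adjusted p = 0.731) and NFE2L2 (−0.16 ± 0.12, adjusted p = 0.437) did not pass either. For the aldo-keto reductases the HKC-8 side of the interaction rests on a few reads, and no difference is given. Scaling by library totals changed the share of higher among all interaction calls from 54.0% to 32.8% and moved the median of all genes from 0.0035 to −0.10. RCC4 cells were not compared in this way, since they are labelled with a different exposure.

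Around these genes, a list of 45 further NRF2 targets was counted whole. In HKC-8 cells 9 of 37 tested fell and 3 rose (9.12% and 11.2% of all genes did), with a median log2 fold change of −0.16. The falls included HMOX1, the haem-degrading oxygenase (−0.84 ± 0.14, adjusted p = 0.00457), GSR, glutathione reductase (−0.58 ± 0.07, adjusted p = 0.000932), ALDH3A2, a fatty aldehyde dehydrogenase (−0.48), PRDX6, a peroxiredoxin (−0.43), CBR1, a carbonyl reductase (−0.37), and FECH, ferrochelatase (−0.33). The rises were the export pump ABCC3 (2.49 ± 0.39, adjusted p = 0.00366), SLC7A11, the cystine transporter that supplies cysteine for glutathione (1.46 ± 0.15, adjusted p = 0.000440), and the export pump ABCC1 (0.34). ABCC3 was low in HKC-8 cells, with 20 to 46 reads in a normoxic and 113 to 252 in a hypoxic library. Leaving out any single HKC-8 library ended the calls of ABCC1 (adjusted p = 0.0573 to 0.0885) and FECH (0.0505 to 0.149), and that of CBR1 ended without normoxic replicate 1 or 2 or hypoxic replicate 1 or 3 (up to 0.0844). ALDH3A2 lost its call without normoxic or hypoxic replicate 1 (up to 0.0710), and PRDX6 without normoxic replicate 1 (0.0675). These fits left out the replicate number. In the 7 other alternatives, the replicate block among them, ABCC1 (adjusted p up to 0.0376), CBR1, ALDH3A2 and PRDX6 kept their calls. FECH lost its call in 2 of the 7 (up to 0.0896). AKR1C3 had too few reads for a test in HKC-8 cells.

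In RCC4 cells 24 of 38 tested targets fell and 6 rose (24.2% and 25.9% of all genes did), with a median of −0.17. ALDH3A2 (−0.88 ± 0.06), AKR1C3 (−0.86 ± 0.06), OSGIN1 (−0.77 ± 0.14), GSR (−0.61 ± 0.04), ABHD4 (−0.59 ± 0.07), the microsomal epoxide hydrolase gene EPHX1 (−0.51 ± 0.05) and HMOX1 (−0.36 ± 0.05) fell, and both ferritin subunits were among the other falls. CBR3 (0.40 ± 0.14), ABCC3 (0.38 ± 0.05) and ABCC1 (0.22 ± 0.04) rose. CBR3 lost its call without normoxic replicate 1 or hypoxic replicate 2 (adjusted p up to 0.175), and in the fit of all 18 libraries CBR3 (0.123), ABCC3 (0.0998), ABCC1 (0.0594) and OSGIN1 (0.101) did not pass. SLC7A11 stood at −0.09 ± 0.06 (adjusted p = 0.195), and passed when scaled by library totals (adjusted p = 0.0144) or without hypoxic replicate 2 (0.0228).

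In HepG2 cells 26 of 41 tested targets fell and 1 rose (19.2% and 19.9% of all genes did), with a median of −0.25. GSTA1, a glutathione transferase (−1.47 ± 0.14, adjusted p = 4.21e-06), GPX2, a glutathione peroxidase (−0.80 ± 0.06), EPHX1 (−0.68 ± 0.06), SLC7A11 (−0.64 ± 0.13), AKR1C3 (−0.60 ± 0.11) and GSR (−0.33 ± 0.06) fell. ABCC1 rose (0.40 ± 0.07), and HMOX1 stood at 0.08 ± 0.07 (adjusted p = 0.441), or at −0.02 when scaled by library totals. Across the lines GSR, TALDO1, PRDX6, MGST1 and ALDH3A2 fell in all 3, 5 of the 34 targets tested in each, where 3.43% of all genes did. ABCC1 rose in all 3, as 3.81% of all genes did. Its HKC-8 call was lost on leaving out any single library, but held in the 7 other alternatives, the replicate block among them. SLC7A11 passed in opposite directions in HKC-8 and HepG2 cells, and FECH rose in RCC4 but fell in HKC-8 and HepG2 cells. These were 2 of the 34 targets, near the share of all genes, of which 682 of 11418 passed in both directions.

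**Figure D4:**
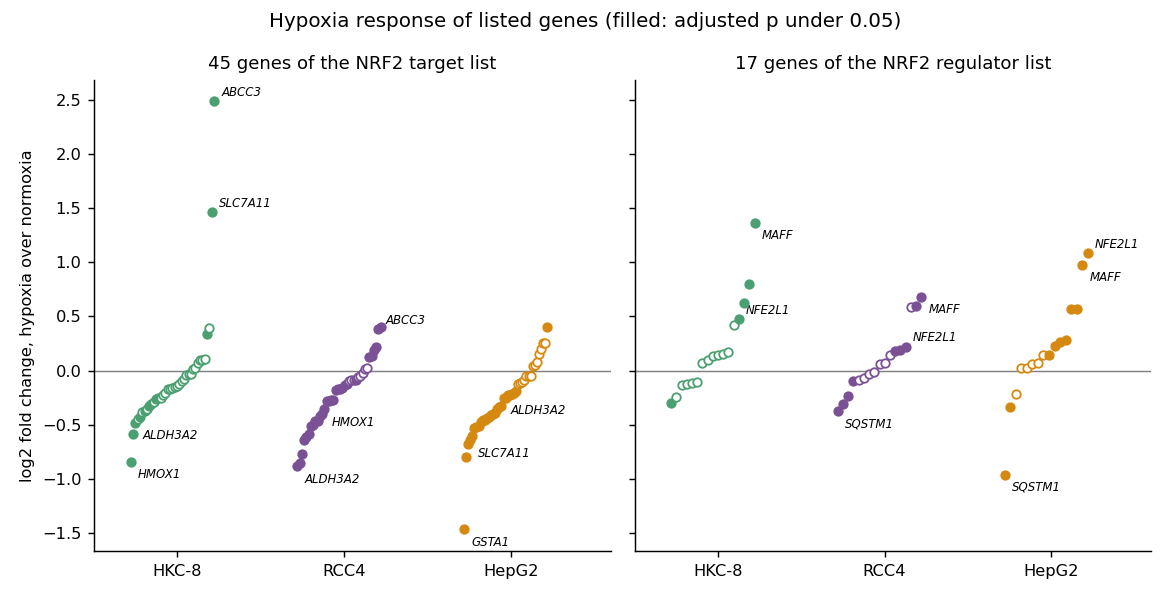
Log2 fold change, hypoxia over normoxia (y axis), of each tested gene of the target list (left) and the regulator list (right), sorted within each cell line, with filled points for an adjusted p under 0.05. On the left 24 filled points lie below 0 and 6 above in RCC4, 26 below and 1 above in HepG2, and in HKC-8 ABCC3 and SLC7A11 stand above the rest. On the right MAFF and NFE2L1 are above 0 in each line, and SQSTM1 is the lowest gene in RCC4 and HepG2.

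A list of 17 regulators of NRF2, which includes the related factors NFE2L1 and NFE2L3, was also counted whole. In HKC-8 cells 4 rose and 1, CUL3, fell (−0.30 ± 0.07, adjusted p = 0.0190). In RCC4 5 rose and 4 fell, and in HepG2 8 rose and 2 fell of 16 tested. The medians in these lines were 0.13, 0.06 and 0.14. Over all genes 11.2% rose and 9.12% fell in HKC-8, 25.9% and 24.2% in RCC4, and 19.9% and 19.2% in HepG2 cells, so that the RCC4 counts were near those shares. BACH1, MAFF and the related factor NFE2L1 rose in all 3 lines, 3 of the 16 listed genes tested in each, where 3.81% of all genes did. BACH1, the repressor at antioxidant response elements, was at 56.6, 61.9 and 57.7 CPM in normoxic and 90.0, 80.9 and 99.7 CPM in hypoxic HKC-8 cells (0.62 ± 0.09, adjusted p = 0.00295). It rose by 0.60 ± 0.05 in RCC4 (adjusted p = 1.74e-10) and by 0.57 ± 0.07 in HepG2 cells (adjusted p = 5.00e-05). The hypoxic libraries were above the normoxic ones in each line.

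MAFF, a small MAF partner, was at 9.13, 12.7 and 6.79 CPM in normoxic and 28.2, 27.0 and 18.4 CPM in hypoxic HKC-8 cells (1.36 ± 0.24, adjusted p = 0.00557), and it rose by 0.68 ± 0.08 in RCC4 and 0.98 ± 0.11 in HepG2 cells. The hypoxic libraries were higher in every line. MAFK rose in HKC-8 (0.80 ± 0.22, adjusted p = 0.0322) and HepG2 cells (0.28 ± 0.09, adjusted p = 0.0176) and stood at 0.15 ± 0.07 in RCC4 (adjusted p = 0.0669). Its HKC-8 call was lost without normoxic replicate 1 or hypoxic replicate 1 or 2 (adjusted p up to 0.120), its HepG2 call without hypoxic replicate 1 or 3 (up to 0.0820), with library totals or in the fit of all 18 libraries (up to 0.192), and in RCC4 it passed without normoxic or hypoxic replicate 2 (down to 0.0350). The HKC-8 call of MAFK held in the 7 other alternatives, the replicate block among them. MAFG fell in RCC4 (−0.24 ± 0.05) and HepG2 cells (−0.33 ± 0.07) and stood at 0.14 ± 0.09 in HKC-8 (adjusted p = 0.260).

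NFE2L1 encodes NRF1, a related factor of the endoplasmic reticulum that also pairs with small MAF proteins. HKC-8 cells showed a rise of 0.48 ± 0.07, RCC4 cells one of 0.22 ± 0.04 and HepG2 cells one of 1.08 ± 0.06, and the rise was larger in HepG2 than in HKC-8 by 0.61 ± 0.09 (adjusted p = 0.000652). KEAP1 passed in no line, with −0.11 ± 0.13 in HKC-8 (adjusted p = 0.567), −0.07 ± 0.03 in RCC4 (adjusted p = 0.118) and 0.14 ± 0.06 in HepG2 cells (adjusted p = 0.0791). Every hypoxic library was below the normoxic ones in RCC4 and above them in HepG2 cells, and the HKC-8 groups overlapped. Scaled by library totals KEAP1 passed in RCC4 cells (−0.15, adjusted p = 0.000885). SQSTM1, the autophagy receptor that can sequester KEAP1 and is itself an NRF2 target, was at 377, 437 and 475 CPM in normoxic and 213, 207 and 243 CPM in hypoxic HepG2 cells (−0.96 ± 0.09, adjusted p = 1.75e-06) and also fell in RCC4 cells (−0.38 ± 0.03). In HepG2 cells NFE2L3 (0.57 ± 0.09) and the coactivator gene EP300 (0.26 ± 0.07) also rose, EP300 not when scaled by library totals (adjusted p = 0.0695).

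**Figure D5:**
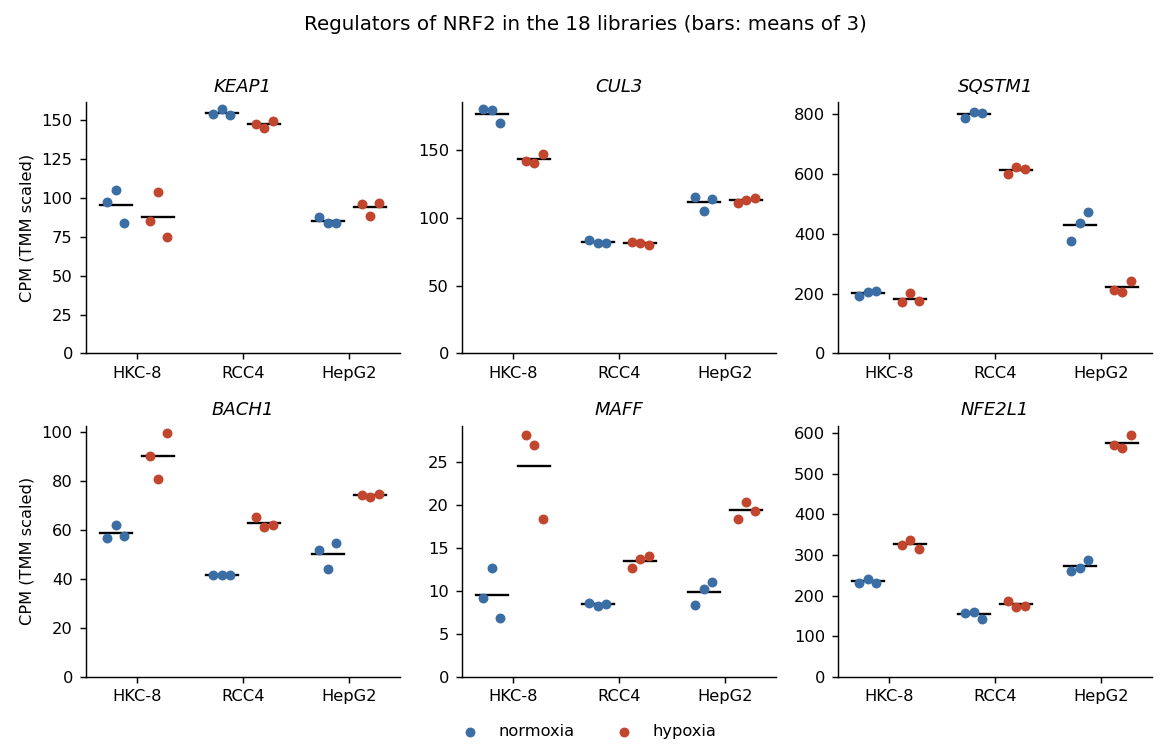
TMM-scaled CPM of 6 genes of the regulator list (y axis, linear, from 0) in the 3 normoxic (blue) and 3 hypoxic (red) libraries of each cell line, with means of 3 as bars. BACH1, MAFF and NFE2L1 are higher in every hypoxic library than in the normoxic ones of the same line, CUL3 is lower in hypoxia in HKC-8 cells, and SQSTM1 is lower in every hypoxic library of RCC4 and HepG2 cells.

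In the interaction, the response of 1 of 44 tested targets was higher in HepG2 than in HKC-8 cells and that of 3 was lower, counts near the shares of all genes (5.02% and 4.28%). The 44 include targets that passed the filter only through HepG2 cells, such as GSTA1, CES1 and GPX2, whose HKC-8 side holds few or no reads. HMOX1 was higher (0.92 ± 0.14, adjusted p = 0.000616), and ABCC3 (−2.42 ± 0.37, adjusted p = 0.000660), SLC7A11 (−2.11 ± 0.23, adjusted p = 4.09e-05) and EPHX1 (−0.69 ± 0.12, adjusted p = 0.00255) were lower. For ABCC3 the HKC-8 side starts from only 20 to 46 reads in a normoxic library. Of the 17 genes of the regulator list NFE2L1, NFE2L3 and CUL3 were higher, and SQSTM1 (−0.82 ± 0.13, adjusted p = 0.00119) and MAFG were lower. KEAP1 (0.26 ± 0.15, adjusted p = 0.326), GSR (0.26 ± 0.09, adjusted p = 0.104) and MAFK (−0.51 ± 0.25, adjusted p = 0.230) passed only under some alternatives, among them the replicate block, and BACH1 (−0.05 ± 0.13, adjusted p = 0.869) and MAFF (−0.39 ± 0.28, adjusted p = 0.440) under none.

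For each gene the 2 genes with the most similar profile were sought by Pearson's r of log2(CPM + 0.5) over the 18 libraries, among genes that passed the count filter. The libraries form 3 clusters by cell line, so r mostly reflects differences between lines and is given without a test. They were SLC22A23 (0.988) and ABCC6 (0.986) for NFE2L2, HEBP2 (0.992) and the ferritin light chain gene FTL (0.985) for NQO1, PSMC2 (0.971) and DLAT (0.962) for GCLM, and NOS3 (0.988) and DLEU2L (0.988) for GCLC. For TXNRD1 they were PHF15 (0.982) and M6PR (0.980), and for SRXN1 EMC3 (0.975) and TMX2 (0.968). Of the aldo-keto reductase genes AKR1C1 paired with RGN and CPN2, AKR1C2 with ZNF385B and ABCG8, and AKR1B10 with MTRNR2L1 and SERPINA6 (0.997 for each of the last 2).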

How the data were processed

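Poly(A)-selected RNA-seq libraries (ScriptSeq v2) of 3 cell lines were analysed from the gene counts that the authors deposited. Per the labels and the methods, the authors trimmed reads with Trim Galore 0.3.3, aligned them to GRCh37 with TopHat2 2.0.8b and Bowtie 1.0.0, removed fragments that did not map uniquely with SAMtools 0.1.19 and made the deposited counts with HTSeq 0.5.4p3 (intersection-strict) on UCSC genes. The strand setting of the counting is not given in the sources used here.

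Counts were tested as deposited with the quasi-likelihood test of edgeR 4.0.16 (R 4.3.3) after its default filter on low counts and TMM scaling, with Benjamini-Hochberg adjustment of p over all genes tested. Each hypoxia comparison used the 6 libraries of a line, the cell line comparisons the 9 normoxic libraries, and the interaction 12 libraries. The SE is the log2 fold change divided by the square root of its F statistic. An adjusted p under 0.05 was called. Ratios of counts were compared by exact permutation tests. Intervals on ratios of counts are exact 95% intervals, and the reads carry no molecular identifiers, so they cover counting error only.

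The 9 genes, the lists of targets and regulators and the rule for named genes were chosen with earlier results of these data known. The rule names all 9 genes, KEAP1, BACH1, HMOX1, SLC7A11, GSR, AKR1C3, MAFF, MAFG and MAFK in each comparison, and the list genes with the largest called changes. A single further gene that the rule names in each comparison is not reported here. VEGFA and NDRG1 served as a check of the hypoxic labels. CUL3, TALDO1 and MGST1, and the list genes named in the interaction, were added after their values were seen.

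In HKC-8 cells samples of the same replicate number deviated together (r of 0.176, 0.631 and 0.577 for the 3 pairs), so the number was taken to pair them. Such joint deviation was not seen for every pair in RCC4 (−0.0065 to 0.033) and HepG2 (0.055 to 0.231). Even so, 6 of 6 HepG2 samples and 4 of 6 RCC4 samples deviated most like the sample of their own number. The main tests and the permutation tests did not use this pairing in any line, and the replicate block was run only as an alternative. No replicates of a group agreed within sampling noise. On simulated counts 81.4% of 199 genes changed 2-fold were recovered in the HKC-8 comparison (13435 genes tested), 94.4% of 197 in RCC4 (12752 genes), 90.4% of 197 in HepG2 (13527 genes) and 66.7% of 195 in the interaction (14763 genes). Of the calls 5.26%, 4.12%, 5.32% and 6.47%, in the same order, were false. Each simulated gene had the same mean in every group before the change, so differences between the cell lines were not represented in the interaction. The alternatives were median-of-ratios scaling, library totals, no filter, at least 10 counts in every sample, DESeq2 1.42.0, the replicate block, summed AKR1C1 and AKR1C2, 1 fit of all 18 samples, and leaving out each replicate.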

Additional observations from a re-analysis of the deposited data

Results flagged for a closer look

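TXNRD1 was the single gene of the 9 whose hypoxia response differed between HepG2 and HKC-8 cells in the main interaction test. With the replicate block SRXN1 (adjusted p = 0.000821) and GCLC (0.0286) passed as well. Without a block SRXN1 passed with library totals (0.0150) and without HKC-8 normoxic replicate 2 (0.0324) or hypoxic replicate 3 (0.0307). AKR1C1 also crossed the threshold under some alternatives, but it entered this fit only through HepG2 cells. Its HKC-8 side rests on 0 reads in normoxia and 5 in hypoxia, so no difference is given. For TXNRD1 the log2 response of HepG2 minus that of HKC-8 was −0.515 (adjusted p = 0.0238, edgeR quasi-likelihood test, 12 libraries), with −0.58 in HepG2 and −0.06 in HKC-8 cells. The adjusted p was 0.0658 without HKC-8 normoxic replicate 1, 0.0624 and 0.0560 without HepG2 hypoxic replicates 1 and 2, and 0.0517 without HepG2 normoxic replicate 3. All HepG2 hypoxic libraries were below all normoxic ones, and the HKC-8 groups overlapped.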

How the results depend on the processing

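Of the values of the 9 genes under all alternatives, 765 kept their direction and their side of the threshold, 16 lost a call, 11 gained one and 5 changed sign. The cause of the changes that follow was not tested. With the replicate block, genes called in HKC-8 cells went from 2757 to 5755 and interaction calls from 1399 to 3018, of which 45.1% were lower. Among the 9 genes 4 rather than 1 were then lower in the interaction. AKR1C1 is among the 4 on only 5 HKC-8 reads, so its call is not read as a difference. The block gave SRXN1 a call in HKC-8 cells and changed no other call of the 9 genes in the hypoxia comparisons. In 1 fit of all 18 samples 5013 genes were called in HKC-8 and 3286 rather than 6423 in RCC4 cells, where 3 rather than 7 of the 9 genes fell and NFE2L2 (adjusted p = 0.144), NQO1 (0.138), GCLC (0.0527) and TXNRD1 (0.281) lost their calls. At least 10 counts in every sample left 4 of the 9 genes higher in HepG2 than in HKC-8 and 3 higher than in RCC4, as fewer were tested, and TXNRD1 was then called between RCC4 and HKC-8 (0.18, adjusted p = 0.0455). Library totals and DESeq2 (3519 calls in HKC-8 cells) each made 2 of the 9 genes lower in the interaction. With DESeq2 AKR1C1, whose HKC-8 side rests on a few reads, was among the 2. DESeq2 called 2011 genes there.

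Leaving out each replicate gave 1013 to 3283 calls in HKC-8 cells (1013 without normoxic replicate 1, 1455 without normoxic 2, 1092 without hypoxic 1, 1712 without hypoxic 3) with 1 to 2 of the 9 genes lower, and 911 to 1890 interaction calls (911 without HepG2 hypoxic replicate 1) with 0 to 3 lower. The 3 lower genes, found without HKC-8 hypoxic replicate 3, include AKR1C1, whose HKC-8 side rests on a few reads. AKR1C2 lost its call between the renal lines without RCC4 normoxic replicate 1 (adjusted p = 0.0685). Values that changed sign, none of them called before or after the change, were TXNRD1 in HKC-8 (−0.147 to 0.0207), HMOX1 in HepG2 with library totals (−0.0168), GCLC (−0.000827 to 0.0650), GCLM (−0.0591 to 0.121) and MAFF (−0.379 to 0.0822) between RCC4 and HKC-8, MAFF between HepG2 and HKC-8 (−0.0091 without a filter, −0.184 to 0.267 on leaving out replicates), and NQO1 (−0.0281 to 0.285) and BACH1 (−0.138 to 0.0244) in the interaction. Ranges are over leaving out each replicate, and at its lowest value MAFF between RCC4 and HKC-8 was called (adjusted p = 0.0242, without HKC-8 normoxic replicate 3).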

Other observations

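In normoxia several detoxifying targets outside the 9 genes were near 0 in 1 line or more. GSTP1, a glutathione transferase, was at 296 CPM in HKC-8 and 1353 CPM in RCC4 cells and at 0.613 CPM in HepG2 cells, and ME1, malic enzyme, was at 100.3 and 113 CPM in the renal lines and 0.148 CPM in HepG2 cells. CES1, a carboxylesterase, was at 88.8 CPM in HepG2 cells and at 0 reads in the normoxic renal libraries, at least 2514-fold and 1408-fold above the floor of 3 reads per library in HKC-8 and RCC4. GSTA1 was at 15.2 CPM in HepG2 cells, at least 431-fold and 242-fold above the same floors. UGT1A6, whose exons are shared in part with other genes of its family, was at 149 CPM in RCC4 cells, at 0 reads in HKC-8 and at 0.107 CPM in HepG2 cells. GSTM3 was at 50.6 CPM in HepG2, 7.91 CPM in HKC-8 and 0.0473 CPM in RCC4 cells. AKR1C3 had 7 reads in the 3 normoxic HKC-8 libraries and was 6.96 times as high in HepG2 as in RCC4 cells (95% counting interval 6.77 to 7.16).

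Of the named regulators KEAP1 was higher in normoxic RCC4 than in HKC-8 cells (log2 0.71 ± 0.08 SE, adjusted p = 1.13e-06) and lower in HepG2 than in RCC4 (−0.85 ± 0.08, or −0.96 relative to the median of all genes), and HepG2 against HKC-8 stood at −0.14 ± 0.08 (adjusted p = 0.0988). BACH1 was lower in RCC4 (−0.48 ± 0.08) and HepG2 cells (−0.21 ± 0.08, adjusted p = 0.0261) than in HKC-8. MAFF passed in no comparison of normoxic lines, MAFG was highest in HepG2 cells (0.63 ± 0.07 over HKC-8 and 0.91 ± 0.08 over RCC4), and MAFK was lower in HKC-8 than in RCC4 (1.29 ± 0.17) and HepG2 cells (0.99 ± 0.17). EP300 was lower in RCC4 than in HKC-8 cells (−1.37 ± 0.10). Of the named targets HMOX1 was higher in RCC4 (2.73 ± 0.09) and HepG2 (3.02 ± 0.09) than in HKC-8 cells, GSR likewise (0.59 ± 0.06 and 0.85 ± 0.06), and SLC7A11 was higher in HepG2 (0.89 ± 0.17) and lower in RCC4 (−0.49 ± 0.17, adjusted p = 0.0173) than in HKC-8. The last call was lost with DESeq2 (adjusted p = 0.0869) and without HKC-8 normoxic replicate 3 or RCC4 normoxic replicate 2. ABCC3 had 93 reads in the 3 normoxic HKC-8 libraries and was 126 times as high in RCC4 cells (102 to 156).

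Of the 45 listed targets 28 were higher and 6 lower in RCC4 than in HKC-8 cells (39.4% and 41.4% of all genes), 33 higher and 10 lower in HepG2 than in HKC-8 (42.6% and 40.5%), and 26 higher and 15 lower in HepG2 than in RCC4 (45.3% and 38.1%). These counts include targets that passed the filter only through the line where they are high, such as GSTA1, CES1, ALDH3A1, AKR1C4 and GPX2 in HepG2 cells, whose calls were fixed by it. Of the 17 genes of the regulator list the counts were 6 and 9, 7 and 7, and 8 and 4, near the shares of all genes.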
